A study of Mus musculus with 35 samples.

Results

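The 88 peaks described here are regions of open chromatin around 4 mouse loci, Smad6, Smad7, Id1 and Id3, out of 76018 peaks counted in an ATAC-seq study of the endothelial-to-hematopoietic transition, in which endothelial cells of the embryo turn into blood progenitors. Within a window no peak was chosen by its level, although the 4 loci were chosen with earlier results of these data known. A peak was taken when its midpoint on build mm9 lay in chr9:63740000-63950000 (Smad6, 26 peaks), chr18:75450000-75620000 (Smad7, 29 peaks), chr2:152520000-152600000 (Id1, 14 peaks) or chr4:135660000-135740000 (Id3, 19 peaks).

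All libraries came from 23GFP transgenic mouse embryos, which carry a green fluorescent reporter; the labels do not say what drives it. The libraries fall into 9 groups, each library from a pool of 1500 sorted cells. At embryonic day (E) 8.5 these were hemogenic endothelium (HE, 4 libraries) and endothelial cells (EC, 4 libraries). At E9.5 they were the population labelled pro-HSC/HPC (3 libraries), HE (4 libraries) and EC (4 libraries). At E10.5 they were pre-HSC II (4 libraries), pre-HSC I (4 libraries, counted as 3 samples), HE (4 libraries) and EC (4 libraries). The tissue is given as PAS+VU at E8.5 and AGM+VU at E10.5, and the tissue label of the E9.5 libraries also names E8.5. The labels do not name the sort gates. The submitters call the replicates biological but the labels do not say whether they came from separate litters, so a p-value measures the spread between these libraries. In pools of cells, fewer cells with an open site and a less open site in each cell cannot be told apart.

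Bone morphogenetic proteins (BMPs) bind receptor kinases at the cell surface, which phosphorylate the transcription factors Smad1, Smad5 and Smad9. These enter the nucleus with Smad4 and bind DNA at GC-rich elements and at the short Smad box CAGAC. Smad6 and Smad7 are the inhibitory Smads: BMP signalling raises their transcription, and their proteins then block the receptors, Smad6 mainly for BMP and Smad7 for both BMP and TGF-beta. Id1 and Id3 are classical BMP target genes whose proteins lack a DNA-binding region and hold bHLH transcription factors off DNA, and both are expressed in endothelium.

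The sequences just upstream of Smad6 and Id3, from RefSeq build GRCm38.p6, are printed so that the letters searched for Smad motifs can be seen for 1 inhibitory Smad and 1 Id gene. Smad7 and Id1 were not searched, and no promoter entry matched Id1. The Smad6 stretch is chr9:64022086-64022309 on the minus strand, and the Id3 stretch is chr4:136143572-136143821 on the plus strand. Capitals mark matches, on either strand, to the motifs GGAGCC and CAGAC.
Smad6: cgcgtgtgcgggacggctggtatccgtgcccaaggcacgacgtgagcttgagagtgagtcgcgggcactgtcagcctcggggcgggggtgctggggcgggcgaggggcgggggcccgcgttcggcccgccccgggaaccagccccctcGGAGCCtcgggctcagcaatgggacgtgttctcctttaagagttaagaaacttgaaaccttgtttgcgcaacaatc
Id3: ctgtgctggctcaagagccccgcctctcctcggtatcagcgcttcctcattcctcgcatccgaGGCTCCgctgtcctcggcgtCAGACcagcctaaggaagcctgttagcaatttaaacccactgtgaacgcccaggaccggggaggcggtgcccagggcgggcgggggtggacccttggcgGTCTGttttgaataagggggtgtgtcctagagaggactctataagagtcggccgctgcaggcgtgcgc
The Smad6 stretch of 224 bases held 1 match to GGAGCC and none to CAGAC, at 66.5% G and C, against a median of 51.8% over all promoters cut to the same length. The Id3 stretch of 250 bases held 1 match to GGAGCC and 2 to CAGAC, at 62.8% G and C, against a median of 52.4%. Neither held the palindrome GGCGCC. At the length of the Id3 stretch, GGAGCC was found in 26% and CAGAC in 42.2% of 32851 promoters, so the matches are common letters and not shown sites. The 2 builds were not converted into each other, and no peak below is placed on these sequences or assigned to a gene. On GRCm38.p6 the nearest protein-coding neighbours are Smad3 and Lctl for Smad6, Dym and Ctif for Smad7, and Rpl11 and E2f2 for Id3. Genes near Id1 include Mcts2 and Cox4i2.

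Library totals over all peaks ran from 456770 to 7415315 counts. The pre-HSC II libraries were the shallowest, at 456770 to 1241216, against 1632752 to 2102252 for pre-HSC I and 2117133 to 5371760 for E10.5 EC. A peak on chromosome X took 2289.5 to 5527.5 of every 1000000 counts in E9.5 EC 3 and 4 and E9.5 HE 4, against at most 981.1 in the other libraries. Endothelial and blood marker genes could not be located among the peaks, so the cell types stand as labelled. Of the 88 peaks, 80 passed the filter on low counts and were tested, and the 8 others reached at most 4.32 CPM in any group mean, where CPM is the count per 1000000 of the scaled library total.

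Each window held 1 peak that was both its widest and its highest, and peaks are named below by the distance of their midpoint from it in kb. These widest peaks were chr9:63867971-63871389 at Smad6 (3418 bp), chr18:75525890-75530673 at Smad7 (4783 bp), chr2:152559999-152565920 at Id1 (5921 bp) and chr4:135698981-135701174 at Id3 (2193 bp). Per length their levels were close, at 34.8 CPM per kb for Id3, 31.9 for Smad7, 30.6 for Smad6 and 25.7 for Id1, as means of the 9 group means. All 4 were open in every group, and all 4 were lowest in pre-HSC II at E10.5. The Id3 peak had the largest fold difference of them.

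The widest Id3 peak measured 17.5, 17.5, 9.55 and 20.1 CPM in pre-HSC II, against 91.7, 55.2 and 105 CPM in pre-HSC I and 73.5, 81.8, 149 and 84.7 CPM in EC of the same day. Every pre-HSC II library lay below every library of the other 2 groups. The level was 5.11-fold lower than in pre-HSC I (log2 fold change -2.35 ± 0.35 SE, edgeR adjusted p = 1.37e-05) and 5.94-fold lower than in EC (-2.57 ± 0.33, edgeR adjusted p = 1.74e-08). In the 6 other groups its means were 64.9 ± 10.2 CPM in E8.5 HE, 58.7 ± 21.2 in E8.5 EC, 67.8 ± 24.4 in E9.5 pro-HSC/HPC (n = 3), 109 ± 25.1 in E9.5 HE, 102 ± 13.3 in E9.5 EC and 87.2 ± 44.8 in E10.5 HE (SD, n = 4 where not given). The peak was called higher in E9.5 EC than in E8.5 EC (0.79 ± 0.27, edgeR adjusted p = 0.0492), a call lost without any of 6 of the 8 libraries (EC 1 and 2 of E8.5 and EC 1 to 4 of E9.5), with log2 fold changes of 0.50 to 0.98 over all alternatives.

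The widest Id1 peak measured 55.9, 70.1, 75.2 and 150 CPM in pre-HSC II, against 196, 184 and 162 CPM in pre-HSC I and 131, 136, 204 and 150 CPM in EC. Pre-HSC II 4 stood at the level of the EC libraries, and the other 3 lay below all of them. The log2 fold change was -1.01 ± 0.25 against pre-HSC I (edgeR adjusted p = 0.0091) and -0.79 ± 0.23 against EC (edgeR adjusted p = 0.00786). The call against pre-HSC I was lost without pre-HSC I 1, and the call against EC was lost with scaling to total counts, where the log2 fold change was -0.43, and with libraries thinned to the smallest total, where it was -0.28. Both calls were lost with only the compared groups in the fit.

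The widest Smad7 peak measured 38.4, 60.1, 81.2 and 116 CPM in pre-HSC II, against 163, 147 and 143 CPM in pre-HSC I and 98, 164, 230 and 159 CPM in EC. Its log2 fold change was -1.10 ± 0.25 against EC (edgeR adjusted p = 0.000446), called under every alternative, which here and below means each one in which the peak passed the filter and could be fitted. A list of single libraries whose removal ended a call covers removals only, and other settings may also have ended it. Against pre-HSC I it was -0.99 ± 0.26 (edgeR adjusted p = 0.0164), lost without pre-HSC I 1, without pre-HSC II 1 or 2, or with only the compared groups in the fit.

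The widest Smad6 peak measured 48.9, 35.1, 71.7 and 96.6 CPM in pre-HSC II, against 91.7, 88.6 and 108 CPM in pre-HSC I and 82.5, 75.1, 173 and 84.7 CPM in EC. The groups overlapped, and EC 3 stood apart within EC. The log2 fold change against EC was -0.69 ± 0.26 (edgeR adjusted p = 0.0437), and this call was lost without EC 3 (-0.34), without pre-HSC II 1, 2 or 3, with every other scaling, and with thinned libraries or only the compared groups in the fit. Against pre-HSC I it was not called (-0.57 ± 0.28, edgeR adjusted p = 0.237).

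**Figure D1:**
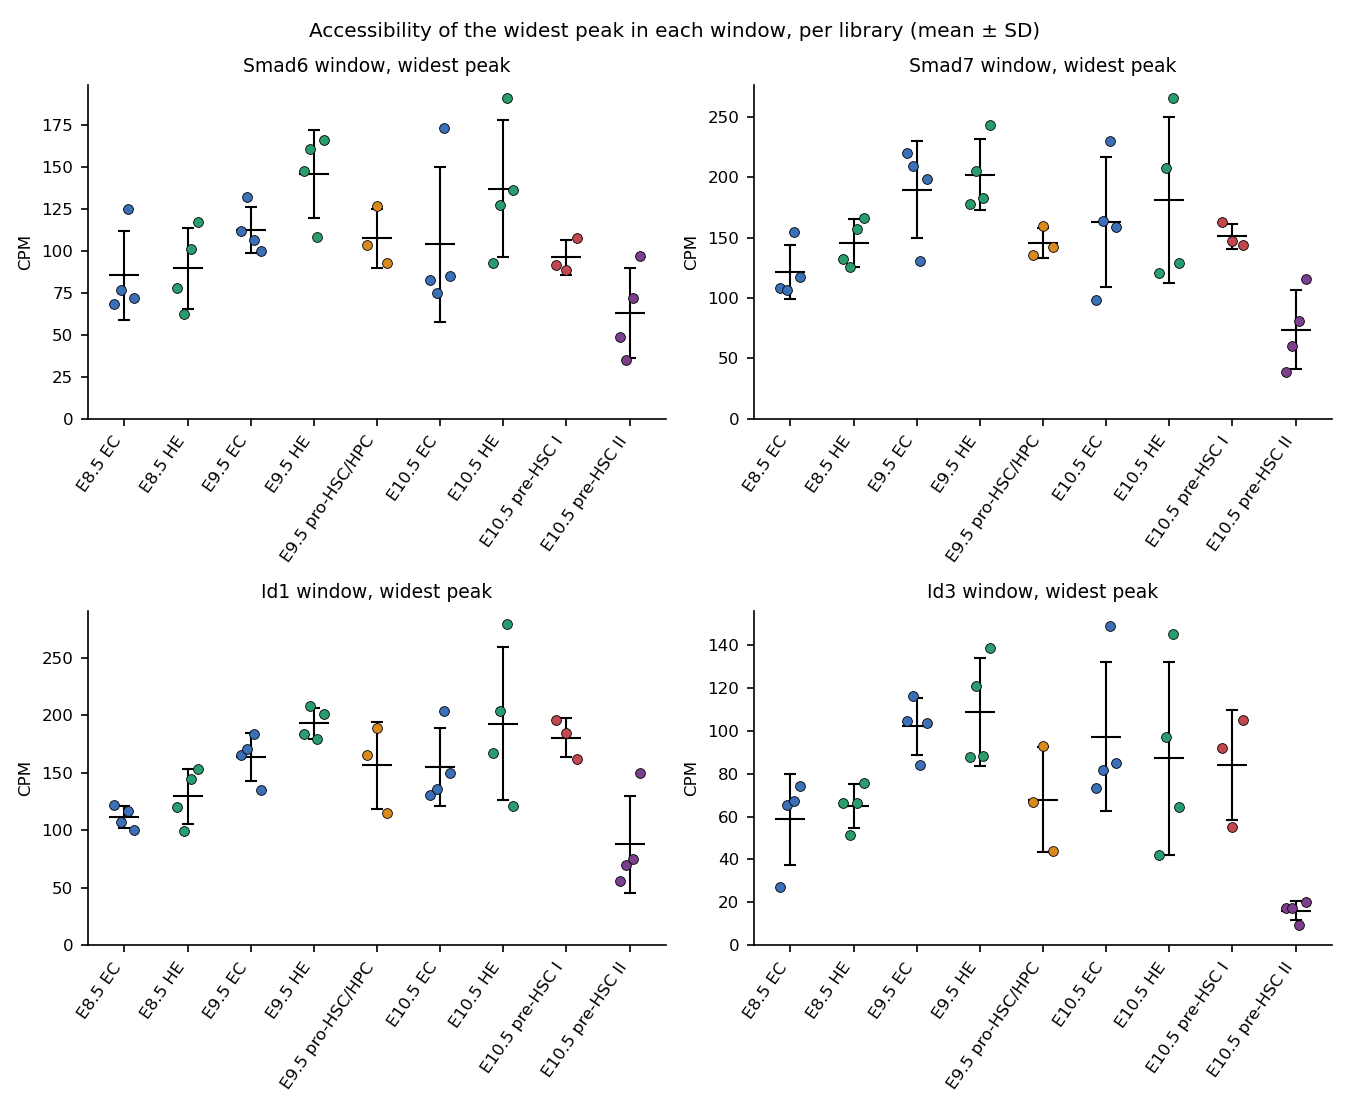
Level of the widest peak of each window in CPM (vertical axis, from 0) in every library of the 9 groups, with group means and SDs. The 4 pre-HSC II points of the Id3 peak sit at 9.55 to 20.1 CPM, below every other library, while those of the Id1, Smad7 and Smad6 peaks reach into the range of other groups.

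The widest peaks were also compared as ratios of counts within a library, which no scaling touches. The count of the Id3 peak over that of the Id1 peak had a geometric mean of 0.191 in pre-HSC II (0.127 to 0.3125) and 0.612 in EC of that day (0.563 to 0.730). The ratio of Id3 to Smad7 was 0.228 (0.118 to 0.455) in pre-HSC II and 0.6 (0.5 to 0.750) in EC, and that of Id3 to Smad6 was 0.265 (0.133 to 0.5) in pre-HSC II and 0.956 (0.861 to 1.09) in EC. Pre-HSC II and EC did not overlap in any of these 3 ratios. In pre-HSC I the ratio of Id3 to Id1 was 0.299 to 0.647 and that of Id3 to Smad7 0.376 to 0.730, and in HE of that day they were 0.25 to 0.533 and 0.347 to 0.547, so pre-HSC II overlapped both groups in these 2 ratios. The ratio of Id3 to Smad6 was 0.623 to 1 in pre-HSC I and 0.452 to 0.762 in HE, and pre-HSC II overlapped HE only. A two-sided exact permutation test of each, chosen after the values were seen, gave p = 0.0286, the smallest that 4 against 4 libraries allow, and p = 0.0571 after adjustment over the 6 ratios, so none passed the correction. The 3 ratios without Id3 overlapped between the groups, with exact permutation p = 0.257 for Smad7 to Id1, 0.514 for Smad6 to Id1 and 0.171 for Smad6 to Smad7. Summed over all 19 peaks of its window, Id3 measured 156 ± 55.6 CPM in pre-HSC II and 425 ± 146 CPM in EC (SD, n = 4 each), and the widest peak held 12% ± 6.7 of that sum in pre-HSC II and 22.9% ± 1.9 in EC. The sums of the other windows were also lower in pre-HSC II, at 241 ± 80.8 CPM for Smad7, 194 ± 57.0 for Id1 and 161 ± 57.6 for Smad6, against 417 ± 72.0, 296 ± 53.0 and 240 ± 50.2 CPM in EC. Their widest peaks held 29.9% ± 3.8 (Smad7), 43.8% ± 7.7 (Id1) and 39.1% ± 8.1 (Smad6) in pre-HSC II, against 38.2% ± 6.7, 52.3% ± 3.1 and 41.9% ± 8.7 in EC.

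A joint edgeR test of any difference among the 9 groups called 38 of the 80 tested peaks (47.5%), against 42.1% of all tested peaks, a share close to that of the rest of the table. By window it called 10 of 23 at Smad6, 15 of 27 at Smad7, 5 of 12 at Id1 and 8 of 18 at Id3. Among the 38, pre-HSC II was the lowest group for 19 (50%) and the highest for 1 (2.63%), against 36.3% and 19.3% of the 28251 peaks called over the whole table. E8.5 EC was the lowest for 7 (18.4%, against 11.8% over the whole table). E9.5 EC was the highest for 9 and E9.5 HE for 9 (23.7% each, against 17.2% and 6.78%), and E9.5 pro-HSC/HPC for 6 and E10.5 HE for 6 (15.8% each, against 6.6% and 7.63%). Over the 34 samples the median correlation of log2 CPM between peaks of the same window was 0.37 for Id3, 0.30 for Smad6, 0.21 for Id1 and 0.20 for Smad7, as a description over libraries that share depth and scaling. Between windows the medians were 0.14 to 0.28. These medians cover peaks of at least 5 CPM on average, and the part of counting noise in them was not tested. The 4 widest peaks correlated with each other at 0.73 to 0.86.

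**Figure D2:**
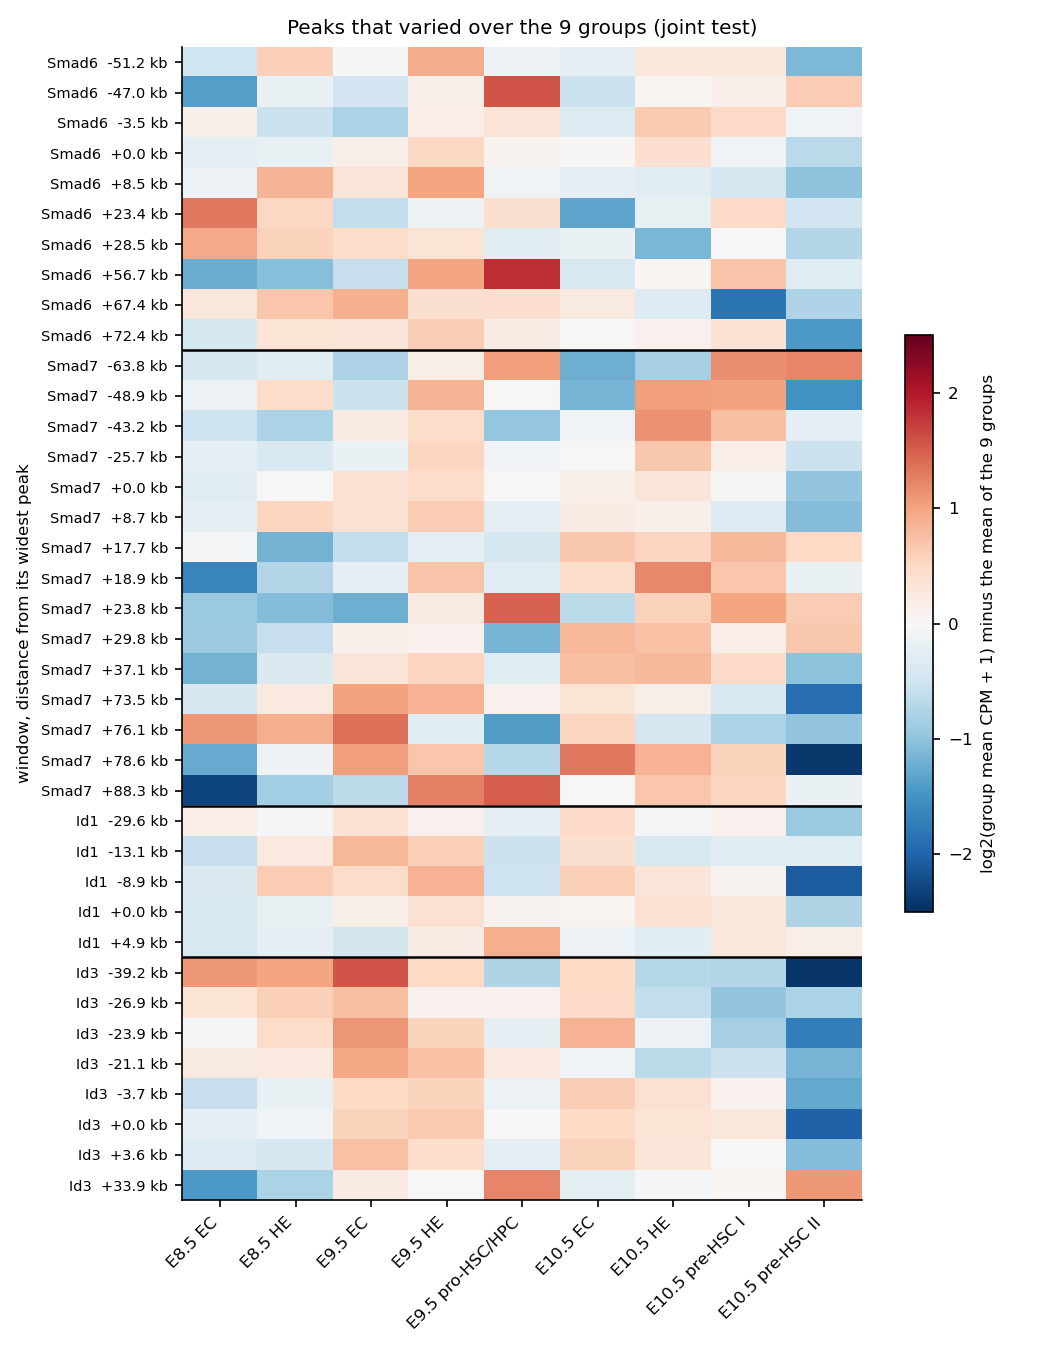
The 38 peaks called in the joint test (rows, by window and position) in the 9 groups (columns). Colour is log2(group mean CPM + 1) minus the mean of the 9 groups, from -2.43 to 1.85. The pre-HSC II column holds the lowest value for 19 rows.

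The Smad6 window held distal peaks that moved in different directions over time. The peak at +56.7 kb (chr9:63926080-63926700) was the leading one in the joint test. It measured 24.2, 39.2 and 21.6 CPM in E9.5 pro-HSC/HPC, against 11.9, 21.0, 7.99 and 19.2 CPM in HE and 0.779, 6.68, 6.19 and 4.22 CPM in EC of that day. The 3 groups did not overlap, with pro-HSC/HPC above HE and HE above EC. It was 6.72-fold higher in pro-HSC/HPC than in EC (2.75 ± 0.56, edgeR adjusted p = 0.000324), a call kept under every alternative. HE was 3.60-fold above EC (1.85 ± 0.53, edgeR adjusted p = 0.0393), a call lost without EC 1, 3 or 4 or HE 1, 2 or 4, with log2 fold changes of 1.37 to 2.32. That call was also lost with thinned libraries and on leaving out the libraries with the high chromosome X peak. The difference between pro-HSC/HPC and HE was not called (0.90 ± 0.51, edgeR adjusted p = 0.437).

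At E8.5 the same +56.7 kb peak measured 4.82, 2.59, 1.88 and 2.20 CPM in HE and 0, 0.872, 1.89 and 7.09 CPM in EC. E9.5 HE was 5.66-fold above E8.5 HE (2.5 ± 0.56, edgeR adjusted p = 0.00721), with no overlap. The call was lost only when every library was thinned to the smallest total. At E10.5 its means were 5.59 ± 3.88 CPM in pre-HSC II, 12.4 ± 3.36 in pre-HSC I (n = 3), 7.37 ± 4.54 in HE and 5.13 ± 1.12 in EC (SD, n = 4 where not given), and no E10.5 comparison called it.

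The Smad6 peak at +23.4 kb (chr9:63892684-63893466) went the other way in endothelium. It measured 6.39, 7.82, 3.54 and 6.33 CPM in E9.5 EC, against 17.3, 24.4, 31.5 and 30.1 CPM in E8.5 EC. The groups were apart, and E9.5 EC was 4.11-fold lower (-2.04 ± 0.42, edgeR adjusted p = 0.000762) under every alternative. It was the 1 peak of the 4 windows called lower in that comparison (1.25% of 80, against 4.56% of all tested peaks). E10.5 EC measured 5.66, 3.57, 2.31 and 1.76 CPM, a further difference from E9.5 EC that was not called (-0.96 ± 0.46, edgeR adjusted p = 0.506).

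The Smad6 peak at +28.5 kb (chr9:63897439-63898861) measured 3.22, 9.53, 9.37 and 6.45 CPM in E10.5 HE, against 22.7, 23.8, 19.4 and 21.5 CPM in E9.5 HE. It fell in every E10.5 HE library relative to every E9.5 HE library (-1.53 ± 0.36, edgeR adjusted p = 0.0222). This was the 1 peak of the 4 windows called between the HE of these days (1.25% of 80, against 0.493% of all tested peaks lower and 0.556% called in all). The call was lost without E9.5 HE 1 or 2 or E10.5 HE 1 or 4, and without E10.5 HE 3 the count was 2. Thinned libraries, or only the compared groups in the fit, also ended the call. So did leaving out the shallow E10.5 HE libraries or the E9.5 libraries with the high chromosome X peak.

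Closer to the widest Smad6 peak, at -3.5 kb (chr9:63865552-63866840), pro-HSC/HPC of E9.5 measured 27.2, 18.5 and 8.48 CPM, against 11.2, 12, 3.54 and 4.22 CPM in EC. The groups overlapped. The call of a 2.22-fold higher level (1.15 ± 0.40, edgeR adjusted p = 0.0443) was lost without EC 1, 3 or 4 or pro-HSC/HPC 1 or 2, with log2 fold changes of 0.63 to 1.41. The peaks at -51.2 kb (chr9:63818025-63818946) and +67.4 kb (chr9:63936760-63937454) passed the joint test and no pairwise one. The peak at -51.2 kb was highest in HE at E9.5, with 26, 37.6, 17.1 and 24.7 CPM, against 15.1, 21.4, 8.84 and 6.33 CPM in EC of that day. The peak at +67.4 kb was lowest in pre-HSC I, with 0, 1.52 and 2.98 CPM.

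At Smad7, 2 neighbouring distal peaks went in opposite directions in E9.5 pro-HSC/HPC against EC. Both were called higher in E9.5 EC than in E8.5 EC. Over the 34 samples, log2 CPM of the widest Smad7 peak correlated at 0.80 with the peak at +78.6 kb. With the peak at +88.3 kb the correlation was 0.48. The peak at +78.6 kb (chr18:75606620-75607126) was the leading Smad7 peak of the joint test. It measured 2.88, 1.74, 0.758 and 2.13 CPM in E8.5 EC, 16.2, 12.8, 6.19 and 17.9 CPM in E9.5 EC and 9.90, 19.6, 22.5 and 12.3 CPM in E10.5 EC. Every E9.5 EC library lay above every E8.5 EC library, 7.46-fold on average (2.90 ± 0.53, edgeR adjusted p = 0.000156).

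In pro-HSC/HPC and pre-HSC II the +78.6 kb peak was low. Pro-HSC/HPC of E9.5 measured 3.81, 2.77 and 3.08 CPM, 4.12-fold below EC (-2.04 ± 0.53, edgeR adjusted p = 0.00513), while HE measured 9.06, 8.83, 11.4 and 11 CPM and was not called against EC. Pre-HSC II held 1 count in its 4 libraries together, against 47 counts in pre-HSC I and 240 counts in E10.5 EC. After scaling, the ratio of pre-HSC II to EC was 0.0165 (95% interval 0.000415 to 0.0926, counting error only) and to pre-HSC I 0.0312 (0.000774 to 0.183). The edgeR adjusted p was 5.12e-07 against EC and 0.000943 against pre-HSC I. All 4 calls of this peak were kept under every alternative that could be computed for it.

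The Smad7 peak at +88.3 kb (chr18:75616351-75616837) was instead highest in pro-HSC/HPC and HE of E9.5. It measured 17.1, 20.3 and 9.25 CPM in E9.5 pro-HSC/HPC, against 9.49, 17.7, 11.4 and 13.3 CPM in HE and 3.89, 1.145, 4.42 and 1.41 CPM in EC. Pro-HSC/HPC and HE overlapped, and both lay above EC. Pro-HSC/HPC was 6.10-fold above EC (2.61 ± 0.59, edgeR adjusted p = 0.00131), under every alternative. HE was 5.03-fold above EC (2.33 ± 0.56, edgeR adjusted p = 0.0102), a call lost without EC 2 or 4 or HE 2, with log2 fold changes of 1.98 to 2.72. That call was also lost on leaving out the libraries with the high chromosome X peak.

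In E8.5 HE the +88.3 kb peak measured 0.602, 3.24, 2.64 and 2.38 CPM, and E9.5 HE was 5.61-fold above it (2.49 ± 0.57, edgeR adjusted p = 0.00814), lost only without the shallow E8.5 libraries. E9.5 EC held 40 counts against 2 counts in E8.5 EC, a scaled ratio of 10.2 (95% interval 2.65 to 87.4, counting error only). That call (edgeR adjusted p = 0.0205) was lost without E8.5 EC 1, 2 or 4 or E9.5 EC 1. At E10.5 its means were 4.17 ± 5.30 CPM in pre-HSC II, 7.52 ± 4.45 in pre-HSC I (n = 3), 8.44 ± 4.87 in HE and 4.79 ± 1.44 in EC (SD, n = 4 where not given), with no call.

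On the other side of the widest Smad7 peak, the peak at -63.8 kb (chr18:75464068-75464907) was called higher in pre-HSC II than in EC. It was 1 of 3 such peaks in the 4 windows, and the only such peak named by rule. It measured 12.2, 21.3, 19.1 and 18.6 CPM in pre-HSC II, against 3.77, 2.38, 2.31 and 1.47 CPM in EC, 7.35-fold higher (2.88 ± 0.52, edgeR adjusted p = 1.96e-05). In pre-HSC I it measured 14.8, 23.3 and 13.1 CPM, and in HE of that day 1.61, 5.45, 5.35 and 1.61 CPM. Both pre-HSC populations lay above every HE and EC library, although pre-HSC I against HE was not called (2.13 ± 0.52, edgeR adjusted p = 0.0763). At E9.5 it measured 15.2, 13.8 and 17.7 CPM in pro-HSC/HPC, against 2.65, 2.29, 3.54 and 6.33 CPM in EC, 4.30-fold higher (2.11 ± 0.51, edgeR adjusted p = 0.00281). Its calls against EC on both days were kept under every alternative.

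At 2 further Smad7 peaks E9.5 EC lay above E8.5 EC. The peak at +37.1 kb (chr18:75565028-75565785) measured 8.64, 3.49, 17.4 and 7.80 CPM in E8.5 EC, 36.8, 33.6, 16.8 and 25 CPM in E9.5 EC and 33.5, 41.0, 46.7 and 34.3 CPM in E10.5 EC. E9.5 EC was 2.90-fold above E8.5 EC (1.54 ± 0.37, edgeR adjusted p = 0.00363), a call lost only without the shallow E8.5 libraries. In pre-HSC II it measured 8.73, 7.52, 19.1 and 6.69 CPM, below every EC library of that day (-1.91 ± 0.41, edgeR adjusted p = 0.000263), under every alternative. Pre-HSC I measured 55.2, 21.3 and 19.1 CPM, and pre-HSC II was called below it (-1.61 ± 0.44, edgeR adjusted p = 0.0209), a call lost without pre-HSC I 1 or pre-HSC II 2 or 4, with log2 fold changes of -2.08 to -0.97.

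The peak at +18.9 kb (chr18:75546890-75547523) measured 7.79, 6.49, 5.30 and 5.28 CPM in E9.5 EC, against 0, 3.49, 1.52 and 1.77 CPM in E8.5 EC (1.93 ± 0.56, edgeR adjusted p = 0.0166, lost without E8.5 EC 1). In HE it measured 8.49, 13.2, 15.4 and 14.1 CPM at E9.5, against 1.81, 5.18, 4.52 and 4.76 CPM at E8.5 (1.58 ± 0.45, edgeR adjusted p = 0.0445). Neither pair of groups overlapped. The HE call was lost without any 1 of the 8 libraries, with log2 fold changes of 1.19 to 1.75.

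The Smad7 peak at -48.9 kb (chr18:75479212-75479533) rested on few counts. It measured 15.3, 0.681, 2.01 and 1.61 CPM in E10.5 HE, against 0, 0.198, 0 and 0.880 CPM in EC (3.81 ± 1.05, edgeR adjusted p = 0.0325), and HE 1 alone held 19 counts. With the replicate number as a block the log2 fold change was 3.49 and the edgeR adjusted p = 0.05305. The call was also lost without HE 1 (2.15) without EC 1, 2 or 3, and with DESeq2. Pre-HSC II held 0 counts against 24 in pre-HSC I, at least 5.45-fold lower with a floor of 3 counts over the group, and this call (edgeR adjusted p = 0.0349) was lost without pre-HSC I 1 or any pre-HSC II library.

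**Figure D3:**
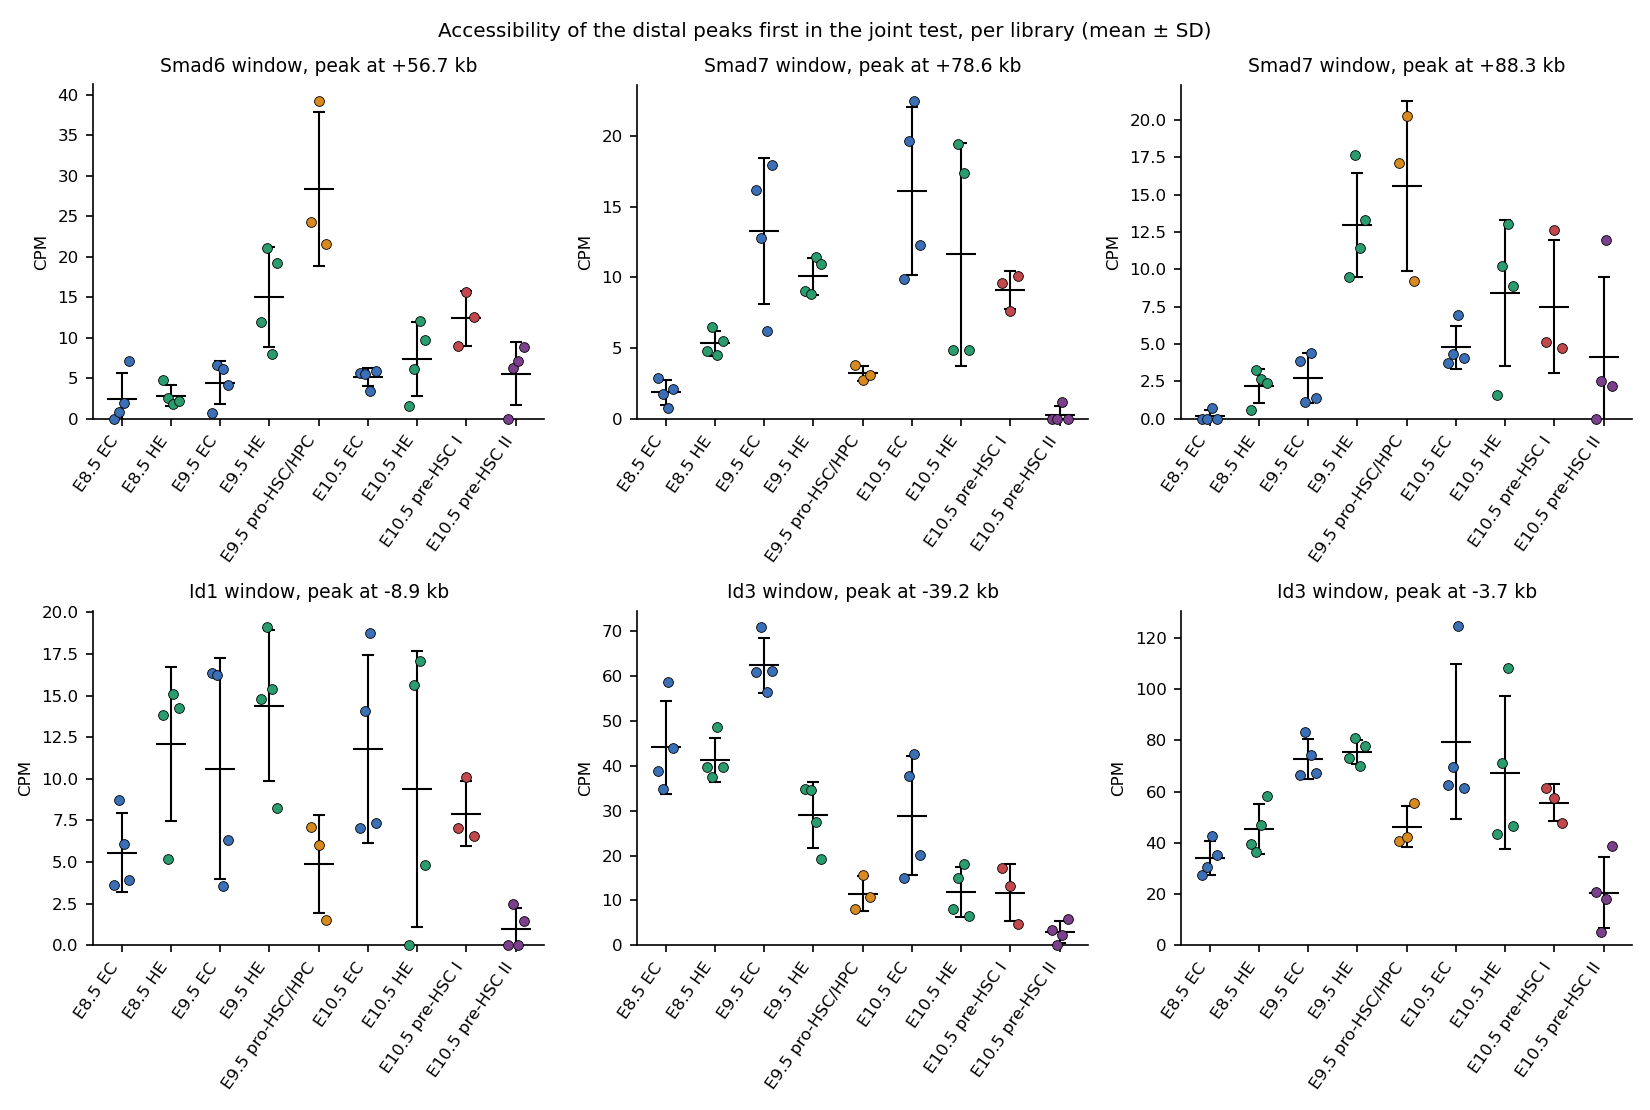
Level in CPM (vertical axis, from 0) of 6 distal peaks in every library of the 9 groups, with group means and SDs. The Smad7 peak at +78.6 kb is high in EC of E9.5 and E10.5 and near 0 in pre-HSC II, while the Smad6 peak at +56.7 kb and the Smad7 peak at +88.3 kb are highest in E9.5 pro-HSC/HPC.

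Around Id1, peaks on the 2 sides of the widest one differed in direction at E9.5. The peak at +4.9 kb (chr2:152567133-152568493) measured 82.5, 75.2 and 63.2 CPM in E9.5 pro-HSC/HPC, against 40.7, 45.9, 53.1 and 35.6 CPM in HE and 37.4, 34.3, 17.7 and 22.5 CPM in EC. Pro-HSC/HPC lay above every library of both groups and was 2.56-fold above EC (1.36 ± 0.32, edgeR adjusted p = 0.00221), a call lost only on leaving out the 3 libraries with the high chromosome X peak (0.99). Against HE it was not called (0.76 ± 0.32, edgeR adjusted p = 0.237).

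On the other side of the widest peak, the Id1 peak at -13.1 kb (chr2:152549433-152550261) showed the opposite order. It measured 5.44, 8.77 and 3.08 CPM in E9.5 pro-HSC/HPC, against 16.2, 14.9, 19.4 and 15.5 CPM in EC (-1.46 ± 0.47, edgeR adjusted p = 0.0295, lost without EC 3 or pro-HSC/HPC 1 or 3). In E8.5 EC it measured 1.44, 8.72, 7.96 and 4.25 CPM, and E9.5 EC was 2.91-fold above it (1.54 ± 0.44, edgeR adjusted p = 0.0139, lost without E8.5 EC 1). The groups of both comparisons did not overlap.

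The Id1 peak at -8.9 kb (chr2:152553847-152554370) was low in pre-HSC II, with 0, 2.51, 0 and 1.49 CPM (0, 2, 0 and 2 counts), against 7.06, 10.1 and 6.55 CPM in pre-HSC I and 7.07, 14.1, 18.7 and 7.33 CPM in EC. The groups did not overlap. The log2 fold change against EC was -3.37 ± 0.80 (edgeR adjusted p = 0.000916), under every alternative. Against pre-HSC I it was -2.79 ± 0.88 (edgeR adjusted p = 0.0471), a call lost without pre-HSC I 1 or 2 or any pre-HSC II library, with log2 fold changes of -3.41 to -2.41.

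Id3 had the largest share of peaks called lower in pre-HSC II, and its peak at -39.2 kb (chr4:135660191-135661491) had the smallest joint p of all 80 tested peaks (edgeR adjusted p = 1.51e-12). At E9.5 it measured 8.17, 15.7 and 10.8 CPM in pro-HSC/HPC, against 35.0, 34.7, 27.4 and 19.2 CPM in HE and 60.9, 71.0, 56.6 and 61.2 CPM in EC. The 3 groups were stepwise apart with no overlap. Pro-HSC/HPC was 5.48-fold below EC (-2.45 ± 0.38, edgeR adjusted p = 3.52e-06), under every alternative.

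The 2 intermediate steps of the -39.2 kb peak were weaker. HE against EC at E9.5 was -1.09 ± 0.31 (edgeR adjusted p = 0.0344), lost without any EC library or HE 3 or 4. That call was also lost with thinned libraries and on leaving out the libraries with the high chromosome X peak. Pro-HSC/HPC against HE was -1.36 ± 0.37 (edgeR adjusted p = 0.0383), lost without HE 1, 2 or 3 or pro-HSC/HPC 1 or 3, or with thinned libraries. This was the 1 peak of the 4 windows called between pro-HSC/HPC and HE (1.25% of 80, against 1.09% of all tested peaks lower and 1.74% called in all). With only the compared groups in the fit, 13 of the 66 members that passed its filter were called (19.7%, against 8.5% of all peaks tested there). With the replicate block added 11 were called (16.7%, against 6.91%). DESeq2 called 3, a count given without its share of all peaks. At E8.5 HE measured 39.7, 37.6, 48.6 and 39.7 CPM and EC 38.9, 34.9, 58.7 and 44.0 CPM, with no call.

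At E10.5 the -39.2 kb peak measured 3.49, 0, 2.39 and 5.94 CPM in pre-HSC II (2, 0, 2 and 8 counts), against 17.3, 13.2 and 4.76 CPM in pre-HSC I, 8.05, 15.0, 18.1 and 6.45 CPM in HE and 15.1, 37.6, 42.7 and 20.2 CPM in EC. Pre-HSC II lay below every EC library, 8.81-fold on average (-3.14 ± 0.47, edgeR adjusted p = 5.44e-07), under every alternative. Pre-HSC II against pre-HSC I (-1.82 ± 0.54, edgeR adjusted p = 0.0356) overlapped and was lost without pre-HSC I 1 or 2 or pre-HSC II 2 or 3. HE against EC (-1.21 ± 0.33, edgeR adjusted p = 0.0337) also overlapped. It was kept with the replicate block and lost without EC 2 or 3 or HE 1 or 4, with log2 fold changes of -1.49 to -0.84. Thinned libraries, a fit of only the compared groups, and leaving out the shallow E10.5 HE libraries also ended that call.

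The Id3 peak at -3.7 kb (chr4:135695805-135696872) measured 20.9, 5.01, 17.9 and 38.6 CPM in pre-HSC II, against 61.6, 57.7 and 47.6 CPM in pre-HSC I and 62.7, 69.7, 125 and 61.3 CPM in EC. Pre-HSC II lay below both groups without overlap. It was -1.87 ± 0.31 against EC (edgeR adjusted p = 3.57e-06), under every alternative, and -1.35 ± 0.33 against pre-HSC I (edgeR adjusted p = 0.00874), lost without pre-HSC II 2 or with only the compared groups in the fit. Earlier it measured 66.4, 83.2, 74.3 and 67.2 CPM in E9.5 EC, against 27.4, 30.5, 42.8 and 35.4 CPM in E8.5 EC, 2.11-fold higher with no overlap (1.08 ± 0.28, edgeR adjusted p = 0.00676), lost only without the shallow E8.5 libraries.

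The Id3 peak at -23.9 kb (chr4:135675866-135676461) measured 3.49, 2.51, 3.58 and 4.46 CPM in pre-HSC II (2, 2, 3 and 6 counts), against 12.3, 32.9, 38.4 and 21.7 CPM in EC, 7.27-fold lower with no overlap (-2.86 ± 0.52, edgeR adjusted p = 2.53e-05) and under every alternative. At E9.5 it measured 8.98, 15.7 and 10.8 CPM in pro-HSC/HPC, against 41.4, 42.6, 22.1 and 19.0 CPM in EC (-1.44 ± 0.44, edgeR adjusted p = 0.0196, lost without EC 1 or 2 or pro-HSC/HPC 1 or 3). E9.5 EC lay above E8.5 EC, which measured 14.4, 8.72, 14.4 and 16.3 CPM (1.21 ± 0.39, edgeR adjusted p = 0.0331, lost without EC 1 or 2 of either day). The other 3 Id3 peaks called lower in pre-HSC II than in EC, and the 1 called higher, are named after their values were seen. The peak at chr4:135702556-135704710 averaged 28.5 ± 13.7 CPM in pre-HSC II and 92.8 ± 35.1 CPM in EC (SD, n = 4 each; -1.68 ± 0.31, edgeR adjusted p = 3.76e-05). The peak at chr4:135672821-135673438 averaged 3.39 ± 1.45 CPM in pre-HSC II and 9.51 ± 4.67 CPM in EC (edgeR adjusted p = 0.0457). The peak at chr4:135698163-135698872 held 0 counts in pre-HSC II, against 52 in EC, at least 4.39-fold lower. The peak called higher, chr4:135733725-135734268, averaged 18.7 ± 14.8 CPM in pre-HSC II and 6.87 ± 2.09 CPM in EC, with overlap (SD, n = 4 each; 1.48 ± 0.53, edgeR adjusted p = 0.031).

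Counted over the 4 windows, most calls were in the 2 comparisons with pre-HSC II, in E9.5 pro-HSC/HPC against EC and in E9.5 EC against E8.5 EC. In pre-HSC II against EC, 22 of 80 peaks were called, 3 higher and 19 lower (3.75% higher and 23.8% lower, against 9.14% and 16.2% of all tested peaks, 25.3% in all). By window 8 of 18 were called at Id3 (7 lower), 9 of 27 at Smad7 (7 lower), 3 of 12 at Id1 (3 lower) and 2 of 23 at Smad6 (2 lower), and libraries of the 2 groups did not overlap for 14 of the 22 (63.6%, against 72% of all called peaks). The median log2 fold change was -1.57 at Id3, -0.69 at Smad6, -0.48 at Smad7 and -0.30 at Id1, against -0.14 over all tested peaks. Set against pre-HSC I, pre-HSC II had 11 calls, all of them lower (13.8%, against 4.09% of all tested peaks lower and 4.93% called in all), with no overlap for 9 (81.8%, against 86.5% of all called peaks). They were 5 at Id3, 4 at Smad7, 2 at Id1 and none at Smad6. The count fell to 4 without pre-HSC I 1, to 7 without pre-HSC II 1, to 3 without pre-HSC II 2 and to 4 with thinned libraries. Here and below, counts with thinned libraries, left-out libraries or DESeq2 carry no share of all tested peaks unless one is printed. With only the compared groups in the fit, 35 of the members passed the filter and 1 was called (2.86%, against 3.15% of all peaks tested there). With the replicate block added it was also 1 (2.86%, against 3.19%). Against EC that fit called 13 of 42 (31%, against 28.4%), and thinned libraries left 11.

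Scaling moves these comparisons. With DESeq2-type size factors (RLE), total counts or DESeq2 itself, the median of all tested peaks shifted by 0.26 to 0.35 upward in the 2 comparisons with pre-HSC II. Over all tested peaks the split of higher to lower calls against EC was 6138 to 10845 with TMM, 8325 to 7693 with RLE, 9050 to 6889 with total counts and 10154 to 8262 with DESeq2. Among the 80 tested peaks of the 4 windows lower calls outnumbered higher ones with each scaling, at 3 to 19, 5 to 15, 5 to 14 and 6 to 15. Against pre-HSC I the split over all tested peaks was 564 to 2747, 898 to 1241, 896 to 1320 and 1914 to 1675, and in the windows 0 to 11, 0 to 6, 0 to 6 and 0 to 7. The Id1 median against EC turned to 0.04 with total counts. The calls against pre-HSC I of the Id3 peak at -39.2 kb, the Id1 peak at -8.9 kb and the Smad7 peaks at +37.1 and -48.9 kb were lost with RLE and with total counts. At the earlier days, total counts ended the calls of E9.5 EC against E8.5 EC at the widest Id3 peak and the Id3 peak at -23.9 kb, of E9.5 HE against E8.5 HE at the Smad7 peak at +18.9 kb, and of pro-HSC/HPC against EC at the Id1 peak at -13.1 kb.

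**Figure D4:**
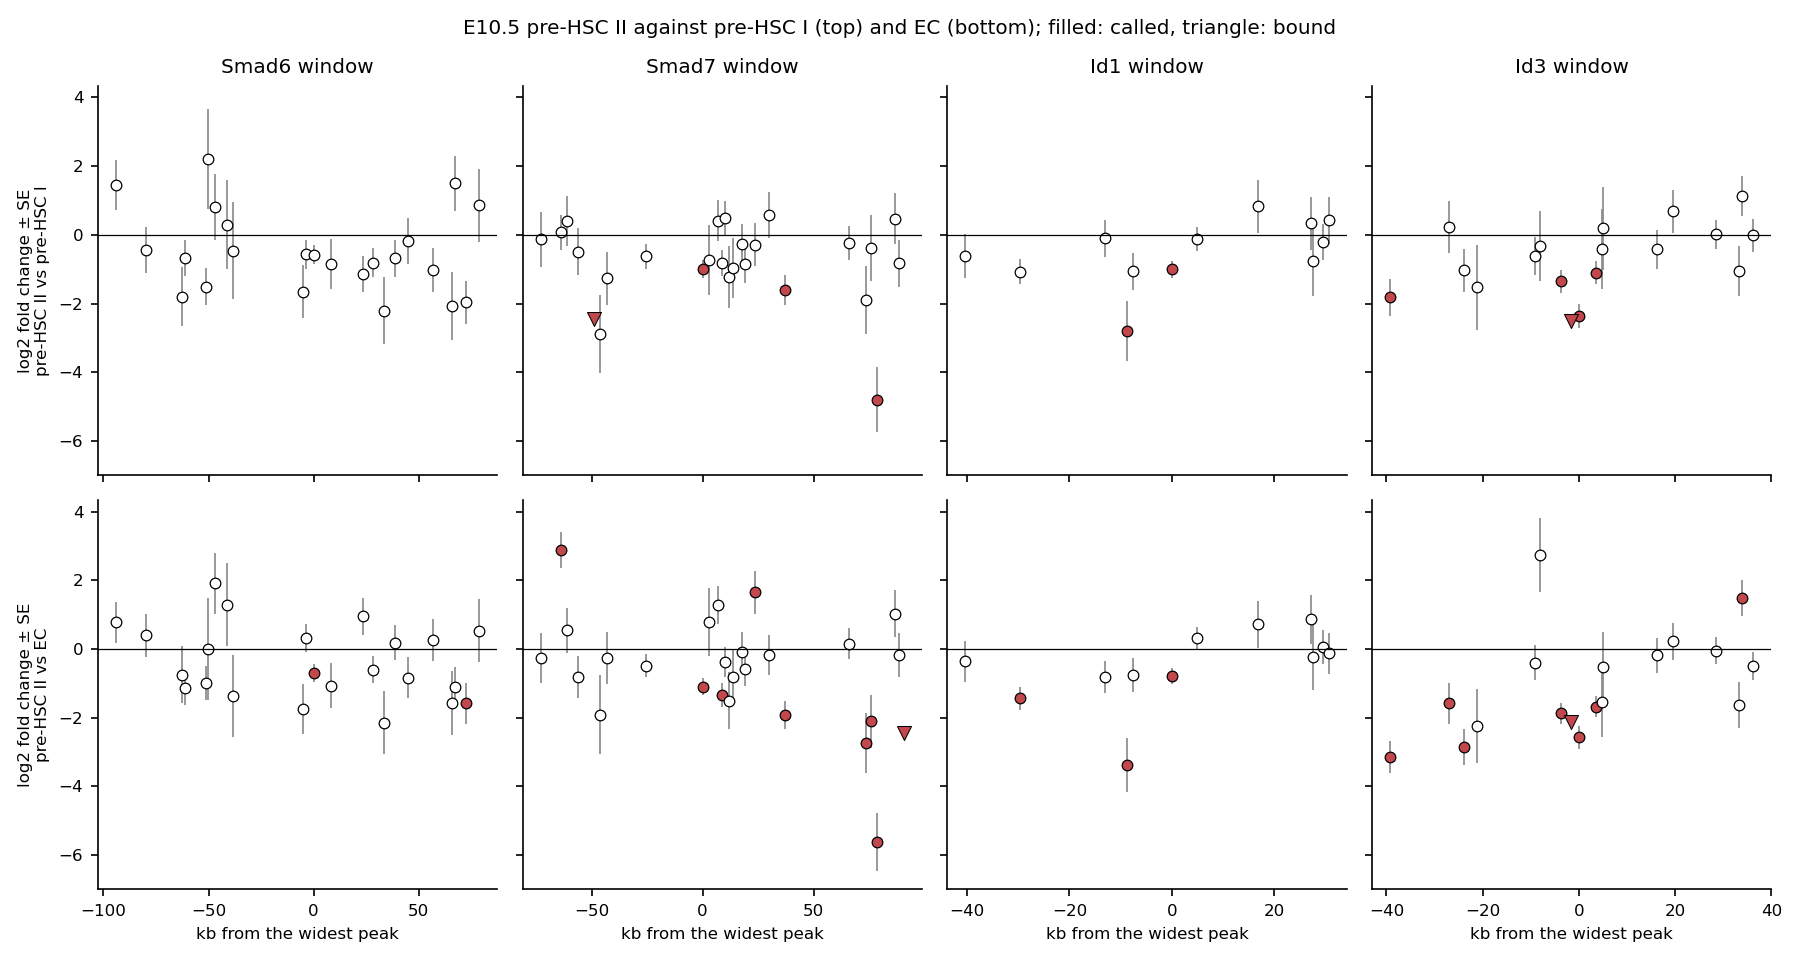
Log2 fold change ± SE (vertical axis) of the tested peaks by distance in kb from the widest peak of their window (horizontal axis), for pre-HSC II against pre-HSC I (top row) and against EC (bottom row). Filled points were called, triangles are lower bounds of the loss for peaks with 0 counts in pre-HSC II, and 1 Smad7 peak in each row is not drawn. Called points at Id3 lie below 0 except 1 in the lower row.

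E9.5 EC against E8.5 EC gave 11 calls, 10 higher and 1 lower (12.5% and 1.25%, against 6.51% and 4.56% of all tested peaks, 11.1% in all), with no overlap for 10 of them (90.9%, against 89.6% of all called peaks). The count fell to 4 without E8.5 EC 1, to 7 without E8.5 EC 2 and to 7 without E9.5 EC 1. Leaving out the shallow E8.5 libraries left 2. A fit of these 2 groups alone called 13 of 60 (21.7%, against 27.8% of all peaks tested there), also 13 with the replicate block added (21.7%, against 23.8%). E9.5 pro-HSC/HPC against EC gave 13 calls, 7 higher and 6 lower (8.75% and 7.5%, against 5.01% and 6.8% of all tested peaks, 11.8% in all), with no overlap for 12 (92.3%, against 93.3% of all called peaks). Without pro-HSC/HPC 1 there were 8 calls, and with thinned libraries 4. Fitted alone, these 2 groups gave 18 calls of 72 (25%, against 22.2% of all peaks tested there), and 15 with the replicate block added (20.8%, against 18.9%). E9.5 HE against E8.5 HE gave 3 calls, all of them higher (3.75%, against 0.895% of all tested peaks higher and 2.13% called in all). With only the compared groups in the fit it gave 14 of 73 (19.2%, against 12.5% of all peaks tested there). With the replicate block added it also gave 14 (19.2%, against 13.7%), but 1 with thinned libraries and 1 without the shallow E8.5 libraries.

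HE against EC gave 0 calls at E8.5 (1.43% of all tested peaks were called), with 13 peaks at an unadjusted p under 0.05 and 0 calls by DESeq2. At E9.5 it gave 4 calls, 2 higher and 2 lower (2.5% each, against 1.36% and 1.22% of all tested peaks, 2.58% in all), and 0 to 2 when any 1 of the 8 libraries was left out. With only the compared groups in the fit the counts were 3 of 55 at E8.5 (5.45%, against 7.31% of all peaks tested there) and 9 of 77 at E9.5 (11.7%, against 11.8%). With the replicate block added they were 3 (5.45%, against 8.84%) and 10 (13%, against 13.5%). At E10.5 it gave 2 calls, 1 higher and 1 lower (1.25% each, against 0.717% and 1.57% of all tested peaks, 2.28% in all), 1 with the replicate block, and 0 or 1 without EC 1, 2 or 3 or HE 1 or 4. The fit of these 2 groups alone called 0 of 62 (against 0.294% of all peaks tested there), and 2 with the replicate block added (3.23%, against 5.29%). Pre-HSC I against HE gave 0 calls (0.07% of all), with 8 at an unadjusted p under 0.05 and 1 call by DESeq2. E10.5 EC against E9.5 EC gave 0 calls (0.316% of all), with 5 at an unadjusted p under 0.05 and 1 call by DESeq2. The interaction of day (E9.5 against E8.5) and cell type (HE against EC) gave 0 calls (1.49% of all), with 9 at an unadjusted p under 0.05 and 2 calls by DESeq2. With only these 4 groups in the fit it gave 4 calls of 72 (5.56%, against 7.69% of all peaks tested there), and 3 with the replicate block added (4.17%, against 7.43%).

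**Figure D5:**
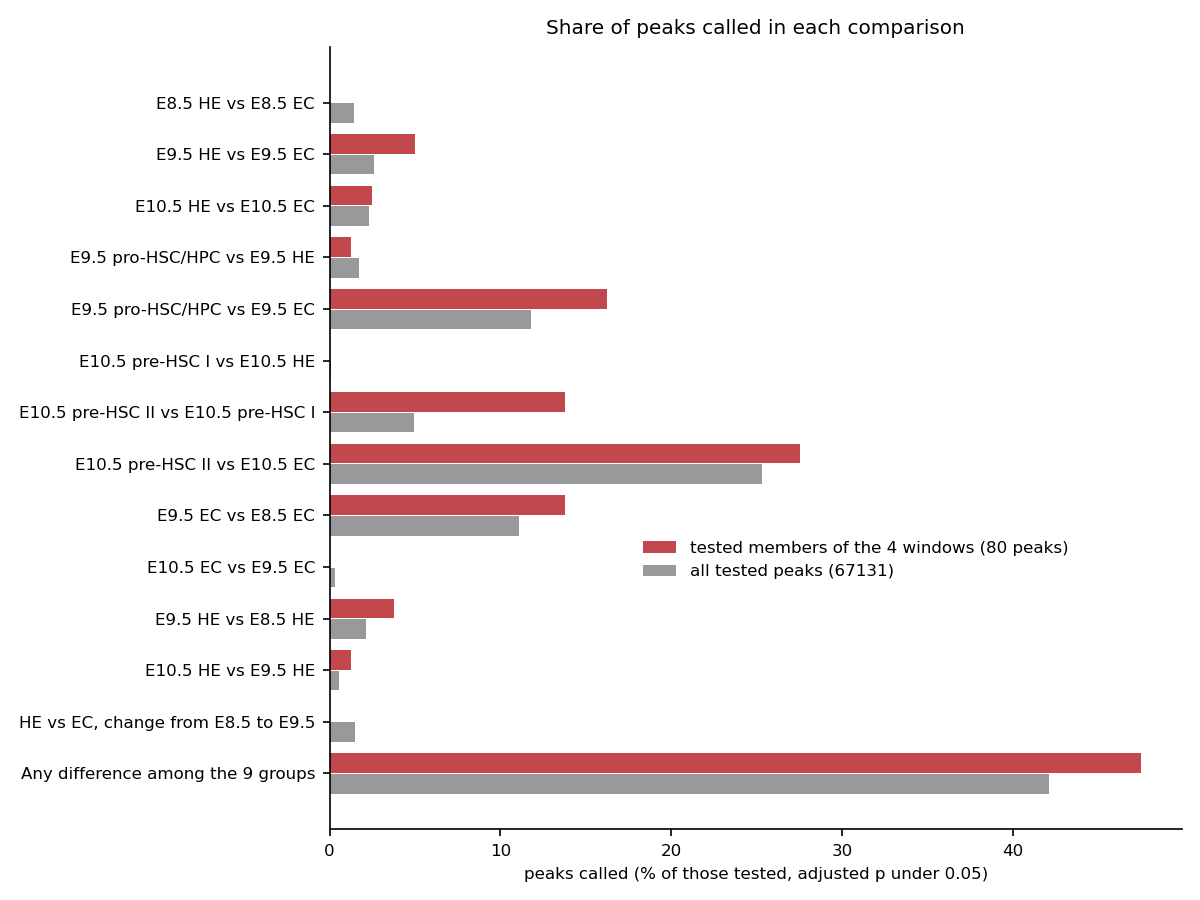
Percent of peaks called (horizontal axis, from 0) in each comparison, for the 80 tested peaks of the 4 windows and for all 67131 tested peaks. Pre-HSC II against pre-HSC I is at 13.8% in the windows and 4.93% over all tested peaks.

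Peaks elsewhere that followed the leading peak of each window most closely were found over the 34 samples by Pearson's r of log2 CPM, as a description over libraries that share depth and scaling. The Id3 peak at -39.2 kb was followed by chr14:20913897-20915050 (r = 0.96), chr1:167613802-167615550 (0.96) and chr13:114232028-114232981 (0.95). The Smad7 peak at +78.6 kb was followed by chr11:115965101-115966023 (0.92), chr13:43331555-43332828 (0.91) and chr18:75753281-75754371 (0.90). The widest Id1 peak was followed by chr5:21150903-21152415 (0.91), chr17:34026759-34028252 (0.91) and chr7:52123892-52125835 (0.90). The Smad6 peak at +56.7 kb had looser company, with chr9:63574245-63574769 (0.84), chr5:114402411-114403030 (0.83) and chr8:124167263-124167766 (0.79). All coordinates are mm9, and the genes at these places were not looked up.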

How the data were processed

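Open chromatin was measured by ATAC-seq, in which the Tn5 transposase cuts and tags accessible DNA, in 35 libraries of 1500 sorted cells with 13 PCR cycles each, per the labels. The deposited values are read counts per peak, not normalised, in 76018 peaks of mouse build mm9. Per the submitters' processing notes, DiffBind 1.14.6, MACS2 2.0.1, deepTools, Bowtie 1.0.0, bedtools 2.17.0, Trim Galore 0.3.1 and SAMtools were used; their settings, including any shift of reads for the transposase, are not given in the sources used here. Among low counts, 54.1% to 78.2% per library were even numbers; the cause was not tested, and counting intervals may be too narrow.

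Counts were tested with edgeR 4.0.16 (quasi-likelihood test) under R 4.3.3, after a filter on low counts and TMM scaling, with all 34 samples in 1 fit of group means. P-values were adjusted by Benjamini and Hochberg over all 67131 tested peaks, and a peak was called at an adjusted p under 0.05. Levels are CPM, counts per 1000000 of the TMM-scaled total. Standard errors are the log2 fold change over the square root of F. A group with 0 counts gives a bound from a floor of 3 counts over the group. DESeq2 1.42.0 was an alternative. The fit was tested on simulated counts. Libraries 2 and 3 of pre-HSC I differed by less than the sampling noise (chi-square over its degrees of freedom 0.461; the other 50 replicate pairs had 2.59 to 8.04) and were counted as 1 sample, the rounded mean of their counts.

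Peaks were named by rule: in each window the peak of highest mean CPM, the widest peak, and the leading peaks of the joint test among those called in it (5 each for Smad6 and Smad7, 4 each for Id1 and Id3), plus the member of smallest adjusted p in each comparison. The 4 windows and these lists were chosen with earlier results of these data known. Replicate numbers were taken to pair libraries where same-numbered ones deviated together from their group means, every pair with r over 0.1. Only E10.5 HE with EC met this, with r of 0.122 to 0.295. Libraries of different numbers there had r of -0.269 to 0.146, so the ranges overlapped and pairing is not shown. The main fit had no block. Alternatives chosen after seeing the data were the block with the compared groups only, and leaving out the shallow E8.5 libraries (1 and 2 of EC and of HE), the shallow E10.5 HE libraries (1 and 4) or the E9.5 libraries high in 1 chromosome X peak. No mm9 annotation was used, so cell type markers and other BMP pathway genes could not be located among the peaks and were not analysed here.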

Additional observations from a re-analysis of the deposited data

Results flagged for a closer look

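In 153 groups of 4 libraries, 1 library stood far from the other 3 in 14 cases among the 22 named peaks, where chance gives about 1 in 20. The rate for low counts in libraries of unequal depth was not tested, so no excess over chance is shown. Libraries recur between cases, so these are not independent.

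E10.5 EC 3 made 5 of the 14. It was high at the widest Smad6 peak (173 CPM, the others 75.1 to 84.7), at the widest Id3 peak (149 CPM, the others 73.5 to 84.7) and at the Id3 peak at -3.7 kb (125 CPM, the others 61.3 to 69.7). It was low at the Smad6 peak at +56.7 kb (3.46 CPM, the others 5.55 to 5.86) and at the Smad7 peak at +18.9 kb (8.65 CPM, the others 10.9 to 11.3). Without it the widest Smad6 peak was no longer called between pre-HSC II and EC, and the calls of the widest Id3 peak and of the Id3 peak at -3.7 kb between pre-HSC II and EC were kept.

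E8.5 HE 2 was low at the Id1 peak at -8.9 kb (5.18 CPM, the others 13.8 to 15.1) and high at the Id1 peak at -13.1 kb (13.0 CPM, the others 9.63 to 10.2). E8.5 EC 3 was high at the widest Smad6 peak (125 CPM, the others 68.4 to 76.8) and at the Smad7 peak at +88.3 kb (0.758 CPM, the others 0). E8.5 HE 1 was low at the Smad6 peak at +28.5 kb (13.2 CPM, the others 29.4 to 31.1). E9.5 HE 2 was high at the Id3 peak at -23.9 kb (24.9 CPM, the others 19.6 to 20.3).

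E10.5 HE 1 was high at the Smad7 peak at -48.9 kb (15.3 CPM, the others 0.681 to 2.01). Pre-HSC II 3 was high at the Smad7 peak at +37.1 kb (19.1 CPM, the others 6.69 to 8.73) and at the Smad7 peak at +78.6 kb, where its 1.19 CPM is 1 count and the others held 0.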

How the results depend on the processing

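The 48 called differences of the named peaks were recomputed as 812 alternative values. All 812 kept their direction and 637 kept the call. The 48 were picked as called in the main fit and the alternatives reuse its libraries, so a kept direction is no independent support. Counts of called peaks among the 80 moved more. For most settings below, the share of all tested peaks called under them is not given. A fall in these counts is therefore not shown to be particular to the 4 windows. With every library thinned to the smallest total, they were 18 for the joint test (38 otherwise), 0 for E9.5 HE against EC (4), 0 for E9.5 pro-HSC/HPC against HE (1), 4 for pro-HSC/HPC against EC (13), 4 for pre-HSC II against pre-HSC I (11), 11 for pre-HSC II against EC (22, of which 9 were shared), 4 for E9.5 EC against E8.5 EC (11), 1 for E9.5 HE against E8.5 HE (3) and 0 for E10.5 HE against E9.5 HE (1). With only the compared groups in the fit, where 35 to 77 of the 80 passed the filter, in the order E8.5, E9.5 and E10.5, HE against EC gave 3, 9 and 0, and with the replicate block added 3, 10 and 2. Under these 2 settings pro-HSC/HPC against HE gave 13 and 11, pre-HSC II against pre-HSC I 1 and 1, pre-HSC II against EC 13 and 11, E10.5 EC against E9.5 EC 1 and 1, E9.5 HE against E8.5 HE 14 and 14, E10.5 HE against E9.5 HE 0 and 0, and the interaction 4 and 3. The replicate block in the whole fit gave 1 call for E10.5 HE against EC, 1 for E10.5 EC against E9.5 EC and 2 for E10.5 HE against E9.5 HE, and counts within 1.5 times for the other comparisons. RLE, total counts and DESeq2 gave 6, 6 and 7 for pre-HSC II against pre-HSC I and 2, 2 and 2 for E10.5 HE against E9.5 HE. RLE and DESeq2 gave 1 and 1 for E10.5 EC against E9.5 EC. DESeq2 gave 3 for pro-HSC/HPC against HE, 1 for pre-HSC I against HE and 2 for the interaction. Pre-HSC I against HE gave 1 with libraries 2 and 3 kept apart. Without the shallow E8.5 libraries, E9.5 against E8.5 gave 2 in EC and 1 in HE. Without the shallow E10.5 HE libraries, HE gave 0 against EC and 0 against E9.5 HE. On leaving out the libraries with the high chromosome X peak, E9.5 HE against EC gave 0, pro-HSC/HPC against EC 8, E9.5 EC against E8.5 EC 7 and E10.5 HE against E9.5 HE 0. The cause of these shifts was not tested, apart from the smaller samples of the thinned and left-out settings. Leaving out 1 replicate gave 36 to 40 for the joint test, 17 to 22 for pre-HSC II against EC, 3 to 11 for pre-HSC II against pre-HSC I, 8 to 11 for pro-HSC/HPC against EC, 0 to 1 for pro-HSC/HPC against HE, 4 to 12 for E9.5 EC against E8.5 EC, 2 to 3 for E9.5 HE against E8.5 HE, 0 to 2 for E9.5 HE against EC, 0 to 2 for E10.5 HE against EC and 0 to 2 for E10.5 HE against E9.5 HE. It gave 0 throughout for E8.5 HE against EC, pre-HSC I against HE, E10.5 EC against E9.5 EC and the interaction. Pre-HSC II, at 456770 to 1241216 counts per library, limits what can be seen there: 1 count in its smallest library is worth more than 1 CPM.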
